A study of Mus musculus with 2 samples.

Results

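The genes of the hnRNP and SR splicing proteins were followed in long-read RNA sequencing of gastrocnemius, the large calf muscle of the mouse. They were chosen by symbol from the genes of the annotation: every symbol that begins with Hnrnp, or with Srsf and a digit, without the suffix for pseudogenes. Of 31 such genes, 30 had reads, 20 of the hnRNP class and 10 of the SR class, among 14900 annotated genes with reads, and Srsf12 was the member with no read. The samples were 1 group of 2 libraries, labelled biological replicates 1 and 2, each from 2 µg of total RNA of male B6CASTF1/J mice, the F1 hybrid of the C57BL/6J and CAST/EiJ strains, aged 18 to 20 months, with no treatment or second genotype named. The labels give separate biosamples with a shared donor entry, so whether the libraries came from separate animals is not given in the sources used here, and the spread between them may be technical. A read is the sequence of a cDNA made from an RNA molecule, sorted into a transcript model by the authors. A Known model is an annotated transcript, an ISM model is a piece of one, an NIC model joins annotated splice sites in an unannotated way, an NNC model has an unannotated splice site, and a Genomic model overlaps a gene but falls in none of these classes. The classes are used as deposited, and some NIC models, such as one of Hnrnpk with 65 and 69 reads, have a splice site that is not in the annotation.

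hnRNP proteins and SR proteins bind nascent RNA and set which splice sites are used, SR proteins mostly by promoting exon inclusion and many hnRNP proteins by opposing it. Many of these genes regulate their own output. Their protein promotes the splicing of an exon with a stop codon, often called a poison exon, or the retention of an intron, and the resulting RNA is degraded by nonsense-mediated decay or held in the nucleus. Both classes are expressed in nearly all cells, and in muscle they take part in choosing the fibre-specific forms of contractile and calcium-handling genes.

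Exons that the annotation places only in transcripts of unproductive types (nonsense_mediated_decay, retained_intron or processed_transcript) are given first, since the known self-regulation of these genes acts through them. The stretch from the first base of the exon to its annotated stop codon, the stop in capitals, is shown for 4 SR genes, each by its most included exon in the mean of both libraries, and for the hnRNP L pair, as the part of each exon that would be translated. All are spliced RNA sequence in the gene's own direction, from the GENCODE M21 transcripts on GRCm38 (mm10).
Srsf4, 207-nt exon, chr4:131884276-131884482, plus strand: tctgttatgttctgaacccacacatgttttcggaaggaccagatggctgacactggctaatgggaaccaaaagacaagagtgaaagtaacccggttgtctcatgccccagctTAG
Srsf9, 358-nt exon, chr5:115328347-115328704, plus strand: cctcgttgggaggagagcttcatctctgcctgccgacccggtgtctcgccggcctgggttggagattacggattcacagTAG
Srsf3, 456-nt exon, chr17:29039454-29039909, plus strand: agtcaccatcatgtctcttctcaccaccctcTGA
Srsf6, 268-nt exon, chr2:162932815-162933082, plus strand: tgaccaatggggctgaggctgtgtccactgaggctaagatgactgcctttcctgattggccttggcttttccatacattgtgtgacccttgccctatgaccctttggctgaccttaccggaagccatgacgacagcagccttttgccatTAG
Hnrnpl, 70-nt exon, chr7:28817335-28817404, plus strand: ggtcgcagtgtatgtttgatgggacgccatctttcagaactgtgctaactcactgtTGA
Hnrnpll, 83-nt exon, chr17:80044940-80045022, minus strand: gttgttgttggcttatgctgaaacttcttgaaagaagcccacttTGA
The stop began at base 113 of the Srsf4 exon, 80 of the Srsf9 exon, 32 of the Srsf3 exon, 150 of the Srsf6 exon, 57 of the Hnrnpl exon and 45 of the Hnrnpll exon. In the annotated transcripts it lay 617, 700, 548, 534, 842 and 807 nt upstream of the last exon junction, in the same order. The Srsf4 value is that of an annotated transcript with a 198-nt exon found in 1 read per library. The distance in the unannotated Srsf4 model described below was not taken. Srsf6 differs from the other 5 in that its exon overlaps a coding exon and differs from it in a splice site.

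Sequencing depth was 1509380 reads in replicate 1 and 1173233 in replicate 2, so that 3 reads, the limit allowed by a count of 0, stood for 1.99 and 2.56 CPM (reads per 1000000 reads). Markers of skeletal muscle fibres summed to 320742 and 311691 CPM, with 6 of 6 detected in both. The libraries differed in content: markers of slow fibres summed to 258 and 3807 CPM, endothelial markers to 45.1 and 110.0 CPM, and smooth muscle and pericyte markers to 207 and 403 CPM, with 6 of 6, 3 of 6 and 3 of 5 called higher in replicate 2. Immune markers summed to 78.8 and 42.6 CPM, with 1 of 5 called lower and Ptprc and Cd68 at 0 in replicate 2. They also differed by transcript length, the median log2 ratio of replicate 2 over replicate 1 being -0.46 for genes of up to 1000 nt and 0.69 for genes above 5000 nt.

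The 30 genes together took 2174 reads in replicate 1 and 2098 in replicate 2, or 1440 and 1788 CPM, which is 0.144% and 0.179% of all reads. The 20 hnRNP genes summed to 1123 and 1429 CPM and the 10 SR genes to 317 and 359 CPM. Levels are in CPM and were not divided by length, because a long read is counted once for its transcript, whatever the length. In whole muscle, fewer cells of a type and less RNA per cell cannot be told apart.

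Among the hnRNP A/B genes, whose proteins bind UAG-containing RNA and package pre-mRNA, Hnrnpa2b1 (chr6:51460932-51469894) had the highest level of all 30 over all read classes, with 513 and 389 reads (340 and 332 CPM). Of these reads, 220 and 132 were Known and 212 and 222 were ISM. In Known reads alone Hnrnpu had 148 and 226, more than Hnrnpa2b1 in replicate 2. Hnrnpa1, the classic splicing silencer, had 52 and 51 reads, and Hnrnpa3 had 38 and 44. Hnrnpa0 was at the limit of detection with 2 reads and 1 read. The level of Hnrnpa2b1 was 336 ± 5.88 CPM (SD, n = 2).
Hnrnpk, a KH-domain protein that binds C-rich RNA, followed with 133 and 194 CPM, and Hnrnpu, which binds RNA and the nuclear scaffold, with 108 and 212 CPM. Their means, 163 ± 43.7 and 160 ± 73.7 CPM (SD, n = 2 each), differed by less than their spread. Hnrnpf, a binder of G-tracts, came next with 81.5 and 116 CPM, and its relatives Hnrnph2, Hnrnph3 and Hnrnph1 had means of 53.4, 17.8 and 16.0 CPM.
Hnrnpd, or AUF1, which binds AU-rich elements of short-lived mRNAs, stood at 43.1 and 81.0 CPM, its relatives Hnrnpab and Hnrnpdl at 53.7 and 34.1 CPM and at 32.5 and 34.9 CPM. Hnrnpc, which covers uridine tracts and keeps the 3′ splice site factor U2AF off them, had 39.8 and 45.2 CPM. The remaining hnRNP genes with more than 10 reads over both libraries had means from 6.20 CPM (Hnrnpul2) to 46.9 CPM (Hnrnpul1).
The 10 SR genes lay in a narrow band. Srsf1, or ASF/SF2, the first SR protein to be described, had 30 and 39 reads, or 19.9 and 33.2 CPM. Their means ran from 18.8 ± 2.47 CPM for Srsf9 and 19.6 ± 2.33 for Srsf7 to 51.2 ± 18.0 for Srsf4 and 52.0 ± 10.8 for Srsf2 (SD, n = 2 each), and neighbours in that order differed by less than the larger of their SDs.

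**Figure D1:**
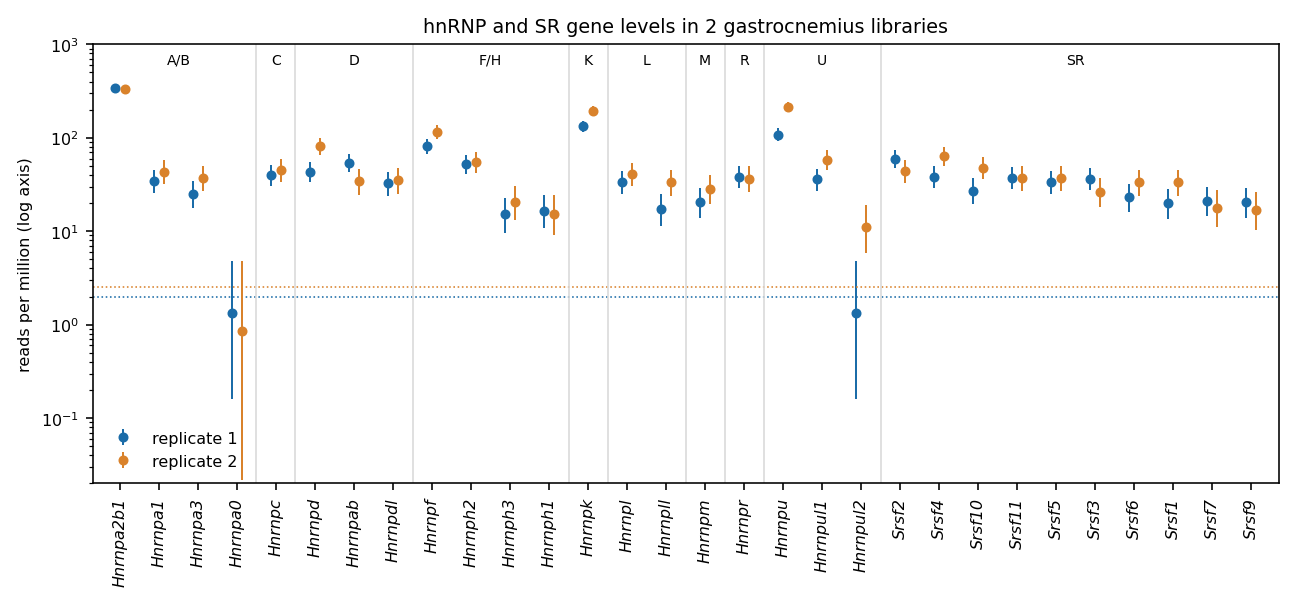
Level of each of the 30 genes in CPM on a log axis, grouped by family (A/B to U, then SR); points are the 2 libraries, bars exact 95% Poisson intervals of the read count, dotted lines 3 reads in each library. Over all read classes, Hnrnpa2b1 is highest at 340 and 332 CPM, and Hnrnpa0 and the replicate 1 value of Hnrnpul2 lie under the dotted lines.

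Replicate 2 was then set against replicate 1 gene by gene with Fisher's exact test (two-sided, Benjamini-Hochberg adjustment over 9032 genes with at least 10 reads), which compares these libraries and not conditions. Hnrnpul2, a relative of hnRNP U, had 2 reads in replicate 1 and 13 in replicate 2, or 1.33 and 11.1 CPM, a ratio of 8.36 (95% interval 1.89 to 76.3, adjusted p = 0.00740). It was the 1 of 29 tested members that passed both criteria, 2-fold or more with an adjusted p under 0.05, against 10.3% of all genes tested and 8.24% as higher. None was called lower. Of the reads of Hnrnpul2, 1 in each library was of a Known model, and the others, 1 and 12, were ISM, so that too few reads remained to test it without ISM models. When ratios were centred on genes of like length, no member passed (4.68% of all genes did), with an adjusted p of 0.113 for Hnrnpul2 by the exact binomial test.
At any fold, 8 of the 29 passed the adjusted threshold, all higher in replicate 2, where 21.4% of all genes passed and 14.8% passed as higher. Hnrnpu rose from 108 to 212 CPM, a ratio of 1.97 (95% interval 1.61 to 2.41), but after centring by length its log2 ratio was 0.22 in place of 0.97 and the call was lost (exact binomial test, adjusted p = 0.407). Hnrnpd rose from 43.1 to 81.0 CPM, a ratio of 1.88 (1.36 to 2.62). Srsf10, an SR protein that represses splicing when dephosphorylated, rose from 27.2 to 47.7 CPM, and Srsf4, one of the large SR proteins, from 38.4 to 63.9 CPM. Hnrnpul1, Hnrnpk and Hnrnpf completed the 8, with ratios of 1.62, 1.47 and 1.42.
The split of calls depended on the scaling, while the 8 named kept a higher value in replicate 2 under each. With TMM factors 3 members passed as higher and 1 as lower, where 815 and 915 of 9032 genes did. With DESeq2 size factors the counts were 3 and 3, which are not read further because the count over all genes at any fold was not taken. At 2-fold with those factors, 1 member was called higher, where 371 of 9032 genes were called higher and 456 lower. After centring by length 3 passed as higher, Hnrnpd, Hnrnpk and Hnrnpf, where 493 of 8625 genes passed as higher and 473 as lower. The median log2 ratio over the 29 was 0.33 against 0.19 over all genes, 0.14 against 0.01 with TMM, and 0.15 against 0 after centring. For Hnrnpk and Hnrnpf the length used in the centring was that of a short annotated transcript, 874 and 956 nt, shorter than their most read models. The part that fibre type, cell composition and length have in these ratios was not tested.
The other genes of the pathway, taken from lists of related proteins, are read against the 10.3% of all genes called. Of 23 tested SR-related proteins, SR kinases and importers, 1 was called higher, the SR import receptor Tnpo3 with 22 and 47 reads. None of 22 hnRNP-like RNA binding proteins was called. Of 25 core splicing proteins, Sf3b3, a U2 snRNP subunit, was called higher with 25 and 45 reads, and the small Sm proteins Snrpd2, with 58 and 17 reads, and Snrpe, with 47 and 15 reads, were called lower. Of 14 nonsense-mediated decay factors, the helicase Upf1 was called higher with 69 and 113 reads. The counts of the core splicing proteins, 3 of 25, and of the decay factors, 1 of 14, are near that background. After centring by length, where 4.68% of all genes were called, Snrpd2 was still called lower, Snrpd3 and Tardbp were called lower as well, and Tnpo3, Sf3b3, Snrpe and Upf1 were not called.

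Reads of annotated transcripts were divided by the transcript type given in the annotation. In SR genes 30 of 343 reads in replicate 1 and 19 of 316 in replicate 2 belonged to transcripts of unproductive types, 8.75% and 6.01%. In the 14 hnRNP genes with at least 10 such reads in each library the shares were 3.48% and 1.43%, and over the 4966 genes tested they were 1.08% and 0.998%. The share was above 0 in 8 of 10 SR genes in each library, in 5 of 14 hnRNP genes, and in 21.7% and 17.7% of all genes. The annotation itself lists an unproductive transcript for 10 of the 10 SR genes, 11 of the 14 hnRNP genes and 82.0% of the 4966. No member differed between the libraries (Fisher's exact test, adjusted p below 0.05 and at least 10 points), where 0.0201% of all genes did.
Srsf9 had the highest share, 6 of 14 annotated reads in each library. Hnrnpdl, whose own protein is known to control an exon of its 3′ region, had 12 of 29 and 6 of 32. Srsf5 had 5 of 23 and 2 of 20, Srsf7 3 of 23 and 2 of 11, and Srsf3 7 of 50 and 2 of 29. Srsf1 had 2 of 15 and 1 of 23, and Srsf6 2 of 33 and 3 of 37. Hnrnpa1 had 3 of 36 and 3 of 40, and Hnrnpa2b1 15 of 220 and 2 of 132. Shares of 0 in both libraries were found in Hnrnpa3, Hnrnpab, Hnrnpc, Hnrnpd, Hnrnpf, Hnrnph2 and Hnrnpul1 among the hnRNP genes with at least 10 annotated reads in each. Some of these zeros were fixed by the annotation, since only 11 of the 14 tested hnRNP genes have an annotated unproductive transcript. Reads of unannotated models, such as those of Hnrnpd with an unproductive exon given below, are not in these shares.

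Counting every spliced read, not only reads of annotated transcripts, gave the inclusion of each unproductive exon, as the share of informative reads (reads with the exon or with an intron across it). There were 15 such exons in 9 genes, 14 had inclusion reads, and 11 exons in 7 genes had them in both libraries. Pooled over exons, inclusion was 13.1% and 12.7% in SR genes, 5.52% and 2.68% in hnRNP genes, and 2.79% and 2.89% over the 1173 unproductive exons tested in all genes. Exons of 1 gene share reads, so the pooled SR value leans on Srsf4. None of the 15 differed between the libraries, where 0.0853% of all such exons did.
Srsf4 had 3 exons of 207, 184 and 174 nt (chr4:131873617-131901706) between the first and the second exon of its coding transcript Srsf4-202. The 207-nt exon, whose first 115 bases are printed above, was included in 14 of 54 and 16 of 71 reads, 25.9% (exact 95% interval 15 to 39.7) and 22.5% (13.5 to 34.0). The 184-nt exon followed with 13 of 53 and 15 of 70, and the 174-nt exon with 12 of 53 and 16 of 71, while a 198-nt form of the last, with an earlier 3′ splice site, had 1 of 42 and 1 of 56.
The 3 exons went together. Of 54 reads that spanned them in replicate 1, 40 had none, 3 had 2 of them and 11 had all 3, and of 71 in replicate 2 the counts were 55, 3 and 13. Reads with 2 include those that held another form of the remaining exon. No read in either library held 1 exon alone. Most of the reads with all 3 belonged to an unannotated NIC model of 9 exons, with 10 and 11 reads, that joined them to the 5 downstream exons of Srsf4-202. No annotated Srsf4 transcript with reads held these exons, so the share was 0 of 40 and 0 of 55 in Known reads alone.

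**Figure D2:**
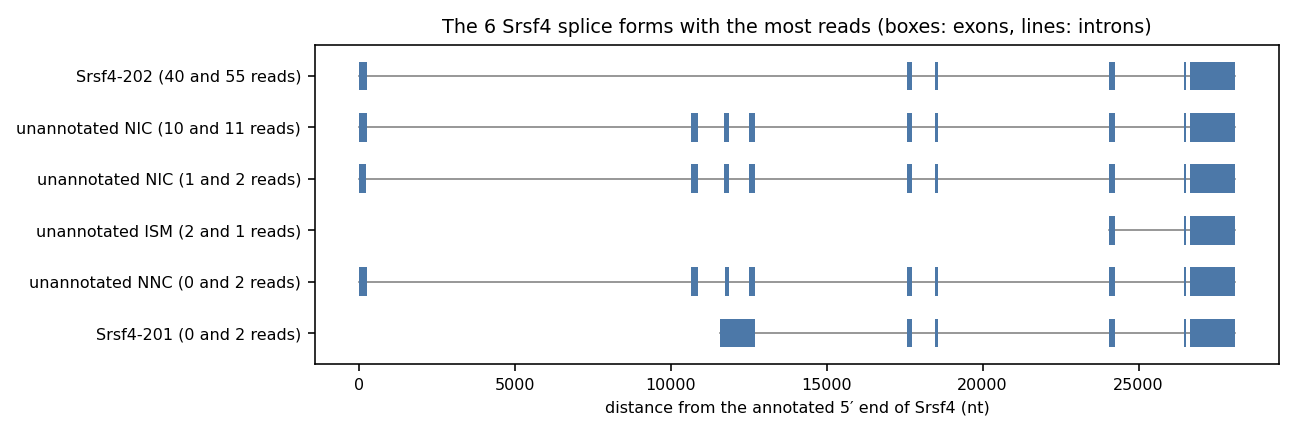
Splice forms of Srsf4 with the most reads, drawn to scale by distance in nt from the annotated 5′ end, boxes as exons and lines as introns, with reads in replicates 1 and 2 in each label. The exons that begin 10659, 11692 and 12514 nt from that end are the 207-, 184- and 174-nt exons, which the forms with 10 and 11 reads and with 1 and 2 reads hold together and Srsf4-202, with 40 and 55 reads, lacks; another form, with 0 and 2 reads, holds a shorter second exon.

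In Srsf9, an SR protein with a short arginine-serine domain, the 358-nt exon shown above was in 13 of 22 and 10 of 18 informative reads, 59.1% (36.4 to 79.3) and 55.6% (30.8 to 78.5). In both libraries reads with the exon outnumbered reads without it, but both intervals include an even split. In Known reads alone the exon was in 6 of 14 in each library. A second unproductive exon of Srsf9, of 90 nt, overlaps a coding exon and was in 12 of 28 and 7 of 19. Of reads that spanned both, 6 of 26 and 7 of 19 held both.
The 456-nt exon of Srsf3, the smallest SR protein and a textbook case of autoregulation through its exon, was in 7 of 51 and 2 of 30 reads, 13.7% and 6.67%. The Srsf6 exon was in 2 of 33 and 3 of 38. Srsf10 had a 360-nt exon in 1 of 36 and 3 of 53. Exons of Srsf7 (460 nt) and Srsf11 (117, 109 and 64 nt) had at most 1 read per library. The intervals of these low shares overlap.
In hnRNP genes, the 70-nt exon of Hnrnpl, which binds CA-rich RNA, was in 3 of 42 and 2 of 42 reads, and the 83-nt exon of its paralog Hnrnpll in 2 of 24 and 3 of 39. Hnrnpd had a 107-nt exon behind its normal stop codon in 3 of 58 and 1 of 90, and a 71-nt form of it in 2 of 57 and 1 of 90. The 105-nt exon of Hnrnpdl, which overlaps a coding exon and also lies downstream of the stop, was in 14 of 30 and 6 of 32 reads, 46.7% (28.3 to 65.7) and 18.8% (7.21 to 36.4). Its difference did not pass (Fisher's exact test, unadjusted p = 0.0292, adjusted p = 1 over all 9010 cassette exons, of which 0.233% passed).

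**Figure D3:**
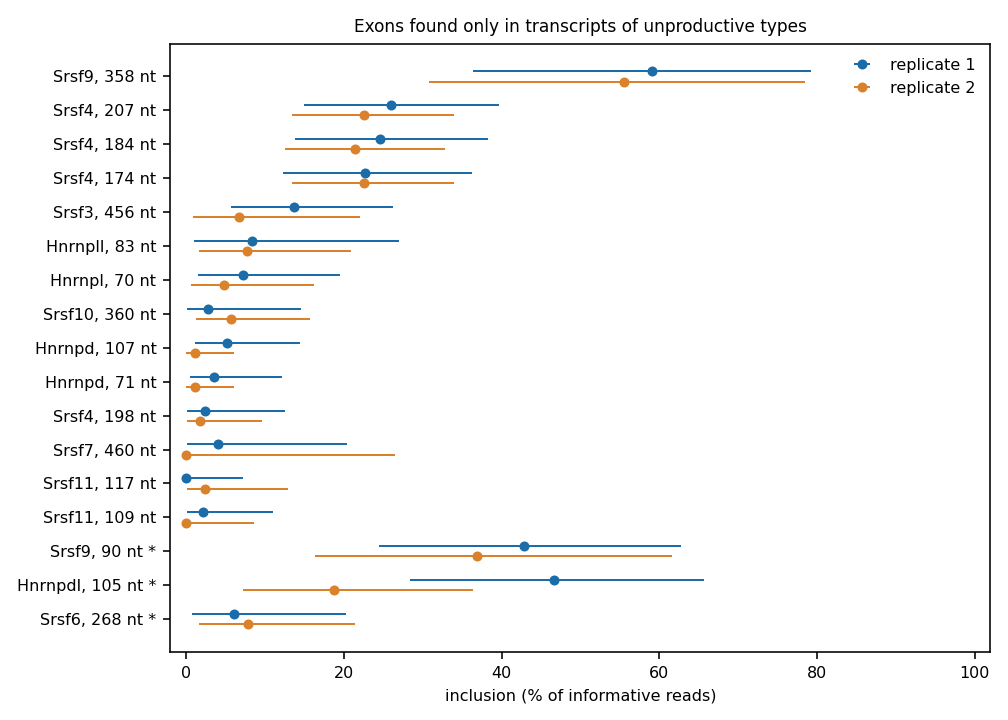
Inclusion of exons found only in transcripts of unproductive types, as percent of informative reads, for each library with exact 95% Clopper-Pearson intervals; exons marked with a star overlap a coding exon, and exons with at least 10 informative reads in each library and at least 1 inclusion read are shown. Srsf9 (59.1% and 55.6%) and the 3 Srsf4 exons (22.5% to 25.9% for the 207-nt exon) lie above the other unmarked exons.

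Intron retention was read in the same way, as the share of informative reads that read through an intron. Of 258 introns of 28 members that no protein_coding transcript keeps, 23 in 13 genes had retention reads in both libraries. Pooled retention was 2.00% and 2.16% in SR genes, 0.861% and 0.730% in hnRNP genes, and 0.168% and 0.140% over all genes, and no member's intron differed between the libraries (0.0137% of 58446 introns did, Fisher's exact test).
The hnRNP value is not firm: 35 and 46 of its reads come from the Hnrnpf intron described last, and the mean of both libraries, 0.795%, fell to 0.482% with at least 20 nt of exon asked for on both sides and to 0.177% without ISM models. In SR genes the mean of 2.08% became 2.03% and 1.67%.
Among introns with at least 20 informative reads in each library and retaining reads that reach 20 nt past both ends, Srsf5 stood highest, with a 1229-nt intron (chr12:80947866-80949094) kept in 17 of 37 and 19 of 39 reads, 45.9% (29.5 to 63.1) and 48.7% (32.4 to 65.2). Counting only retaining reads with that reach, the intron was kept in 17 of 37 reads in each library, 45.9%. An unannotated NIC model of 7 exons that keeps it had 8 and 10 reads, next to 12 and 8 for the coding transcript Srsf5-201. Srsf7 kept an 874-nt intron (chr17:80204388-80205261) in 6 of 30 and 8 of 20 reads, 20% and 40%, a difference that did not pass (exact p = 0.198, adjusted p = 1). The 460-nt unproductive exon of Srsf7 lies inside this intron.
Srsf2 kept a 1059-nt intron (chr11:116850962-116852020) in 11 of 89 and 4 of 51 reads, and in 4 of 82 and 1 of 47 without ISM models. Introns of 686 and 269 nt within it, on either side of a 104-nt exon, were each kept in 11 of 12 and 4 of 5 reads. Those had fewer than 20 informative reads in each library, and without ISM models each was kept in 4 of 5 and 1 of 1. Another Srsf2 intron, of 502 nt in the last exon of the coding transcript, was spliced out in 9 of 90 and 3 of 52 reads. The Srsf2 protein is known to act on the splicing of its own 3′ region.
Hnrnpa2b1 kept a 486-nt intron in 14 of 107 and 3 of 46 reads, a 1355-nt intron in 11 of 120 and 4 of 65, and a 156-nt intron in 12 of 348 and 5 of 307. The 1355-nt and 156-nt introns share an end, and a 1977-nt intron that spans all 3 was kept in 9 of 13 and 3 of 10, fewer than 20 informative reads in each library. Most of the retaining reads were ISM models, with 1 of 51 and 0 of 14 left for the 486-nt intron without ISM models. An 80-nt intron of Hnrnpab was kept in 7 of 71 and 2 of 38, all from ISM models, and a 1855-nt intron of Hnrnpu in 3 of 155 and 7 of 237. Srsf1 kept a 368-nt intron in 2 of 21 and 1 of 34.
A 309-nt intron of Hnrnpf was read through in 35 of 39 and 46 of 46 informative reads, but the model in question, an ISM model of 4 exons, reaches 13 nt past the intron. With at least 20 nt of exon asked for on both sides, a setting added after the values were seen, none of these reads counted as retention. Hnrnpl and Hnrnpm each hold an intron that a protein_coding transcript keeps, retained in 10 of 45 and 13 of 42 reads and in 9 of 21 and 11 of 17.

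Cassette exons of protein_coding transcripts with mean inclusion between 10% and 90% are sites where these genes make alternative mRNAs, and where the exon is coding, alternative proteins. With at least 20 informative reads in each library there were 11 in 8 genes, 10 of them in hnRNP genes, and 10 of the 11 are described. The sequences of 5 are shown, whole, because they are the named protein isoforms of the hnRNP A and D families. TAT and TAC codons, read in the frame of the annotated coding sequence, are in capitals in the 3 longer ones.
Hnrnpa2b1, 36-nt exon, chr6:51467391-51467426, minus strand: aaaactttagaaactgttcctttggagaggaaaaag
Hnrnpa2b1, 120-nt exon, chr6:51464428-51464547, minus strand: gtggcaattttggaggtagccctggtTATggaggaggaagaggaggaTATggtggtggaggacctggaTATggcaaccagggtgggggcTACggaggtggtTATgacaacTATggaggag
Hnrnpd, 57-nt exon, chr5:99976534-99976590, minus strand: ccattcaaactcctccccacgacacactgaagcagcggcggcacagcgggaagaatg
Hnrnpd, 147-nt exon, chr5:99963731-99963877, minus strand: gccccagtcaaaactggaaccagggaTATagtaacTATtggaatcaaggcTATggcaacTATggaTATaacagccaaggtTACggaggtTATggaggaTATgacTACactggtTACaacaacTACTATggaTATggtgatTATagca
Hnrnpab, 141-nt exon, chr11:51601750-51601890, minus strand: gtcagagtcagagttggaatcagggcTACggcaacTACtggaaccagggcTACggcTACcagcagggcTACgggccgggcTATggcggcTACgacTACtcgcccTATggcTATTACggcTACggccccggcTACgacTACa
All 5 have a length that is a multiple of 3. In the 120-nt exon of Hnrnpa2b1, 59.0% of codons begin with GG, where the median over 4040 coding cassette exons of at least 30 codons in all genes was 5.71%. In the 147-nt exon of Hnrnpd 14 of 48 codons were TAT or TAC, and in the 141-nt exon of Hnrnpab 14 of 46, or 29.2% and 30.4%, where the median was 2.44%. A share of at least 20%, a limit set after these values were seen, was found in 4 of the 4040 exons (0.0990%), and the exons of Hnrnpab and Hnrnpd had the highest shares of the 4.

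The 36-nt exon of Hnrnpa2b1 makes the B1 protein rather than A2. It was in 42 of 249 and 21 of 152 reads, 16.9% and 13.8%. The 120-nt exon, in the low-complexity region, was in 232 of 271 and 143 of 172, 85.6% and 83.1%. In reads that covered both sites, the form with the 120-nt exon and without the 36-nt exon took 71.0% of 248 and 69.7% of 152, and the form with both took 14.1% and 12.5%.
Hnrnpd makes the AUF1 isoforms from its 57-nt and 147-nt exons. The 57-nt exon was in 48 of 60 and 70 of 87 reads and the 147-nt exon in 34 of 61 and 45 of 90. Of reads that covered both, 38.3% and 37.9% held both, 41.7% and 42.5% held the 57-nt exon alone, 16.7% and 12.6% the 147-nt exon alone, and 3.33% and 6.90% neither. The order of the 4 forms was the same in both libraries, although the level of the gene differed.
The 141-nt exon of Hnrnpab, a relative of Hnrnpd, was in 19 of 77 and 17 of 40 reads, 24.7% (15.6 to 35.8) and 42.5% (27.0 to 59.1), with overlapping intervals. Srsf7 included a 36-nt coding exon in 27 of 32 and 18 of 20.
The other 4 were not wholly coding. A 45-nt exon of Hnrnph2 in the 5′ UTR was in 32 of 77 and 26 of 61 reads, a 26-nt exon of Hnrnpc in the 5′ UTR in 28 of 48 and 32 of 48, and 2 forms of a partly coding exon of Hnrnpr, 169 and 166 nt with acceptors 3 nt apart, in 13 of 42 and 4 of 27 and in 13 of 42 and 14 of 37. Each Hnrnpr form was set against the same 29 and 23 reads without the exon. Reads with the other form were left out, so the 2 shares cannot be added. Exons of Hnrnph3 (139 nt, 16 of 19 and 16 of 20) and Hnrnph1 (90 nt, 13 of 18 and 14 of 15) fell below that minimum. None of the 11, nor of these, differed between the libraries (0.259% of 7722 coding cassette exons did, Fisher's exact test).

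**Figure D4:**
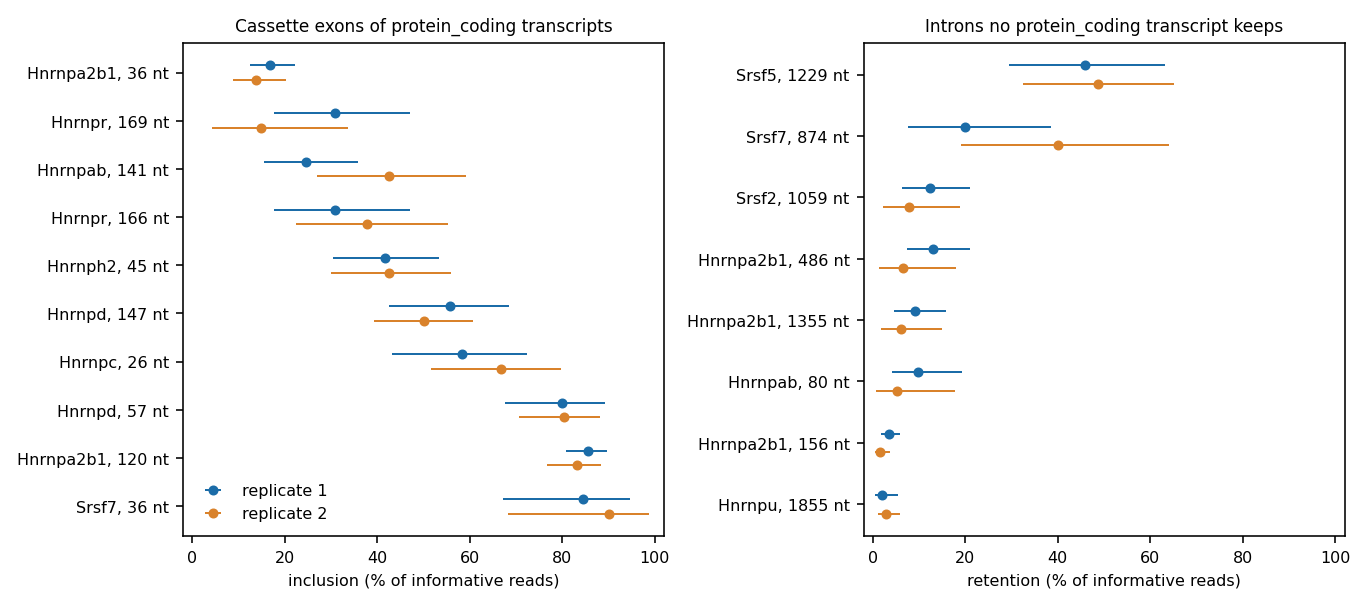
Left, inclusion of 10 of the 11 cassette exons of protein_coding transcripts with mean inclusion between 10% and 90% and at least 20 informative reads in each library; right, retention of introns that no protein_coding transcript keeps (at least 8 retaining reads with 20 nt of exon on both sides, at least 20 informative reads in each library). Points are the 2 libraries with exact 95% Clopper-Pearson intervals, which overlap for every exon and intron drawn; Srsf5 has the highest retention, 45.9% and 48.7%.

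The most read transcript of a gene is a measure of how far 1 form dominates. Its median share over the 27 members that reached 20 reads in both libraries was 41.4% and 50% against 76.0% and 78.4% over 4657 genes. Hnrnpu was an exception, with 90.8% and 90.4% of reads on Hnrnpu-201, as were Srsf6 (88.6% and 87.2%), Srsf2 (82.2% and 84.6%) and Srsf3 (78.2% and 87.1%). The lowest shares, in the mean of both libraries, were those of Hnrnpc, 15% and 18.9%, and Srsf5, 23.5% and 18.2%.
No member's share differed by the full rule of 20 points (0.88% of genes did). With no minimum difference, Hnrnpa2b1 passed, where 2.58% of genes did: an ISM model of its last 2 exons, 578 nt long, had 123 of 513 reads in replicate 1 and 155 of 389 in replicate 2, 24.0% and 39.8% (Fisher's exact test, adjusted p = 5.76e-05). The full-length Hnrnpa2b1-204 had 26.1% and 23.1%. Hnrnpdl-202 moved from 22.4% to 56.1% without passing (adjusted p = 0.0680).

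Known models held 71.6% and 75.1% of SR reads and 55.2% and 55.3% of hnRNP reads, against 64.2% and 60.8% over all genes. ISM models held 21.7% and 22.5% of hnRNP reads against 10.2% and 9.55%. Hnrnpa2b1 gave most of the ISM reads, and Hnrnpul2 had 1 of 2 and 12 of 13 reads as ISM.
Hnrnpk had almost no Known read, 0 of 200 and 2 of 228. In the annotation all 8 protein_coding transcripts that span the site hold a 16-nt exon at chr13:58393853-58393868, minus strand, and no read held it. Instead 178 and 207 reads, 89.0% and 90.8%, used an intron from 58393775 to 58394059 whose upstream exon is 16 nt longer than annotated, the added 16 nt being those next to the annotated splice site. The annotated exon and the stretch read in its place are of equal length and share 8 of 16 bases by position.
Hnrnpk, annotated 16-nt exon: ggtggttctggatatg
Hnrnpk, 16 nt read in its place: gttgagtatcaataat
The sequences of the reads were not analysed here, so which of the 2 stretches the molecules held was not tested. Hnrnpm had 0 Known reads of 31 and 33, and 11 and 18 of its reads were ISM. An exon of 8 nt and one of 53 nt, held by all 5 protein_coding transcripts that span them, were in no read. An unannotated intron from 33669079 to 33677267, in 19 and 15 reads, leaves the upstream exon 6 nt longer. Unlike in Hnrnpk, the added stretch and the missing exons differ in length. Whether the Hnrnpm molecules held those exons was not tested either. The shares of Known reads of these genes, and results based on Known reads alone, carry this limit.

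**Figure D5:**
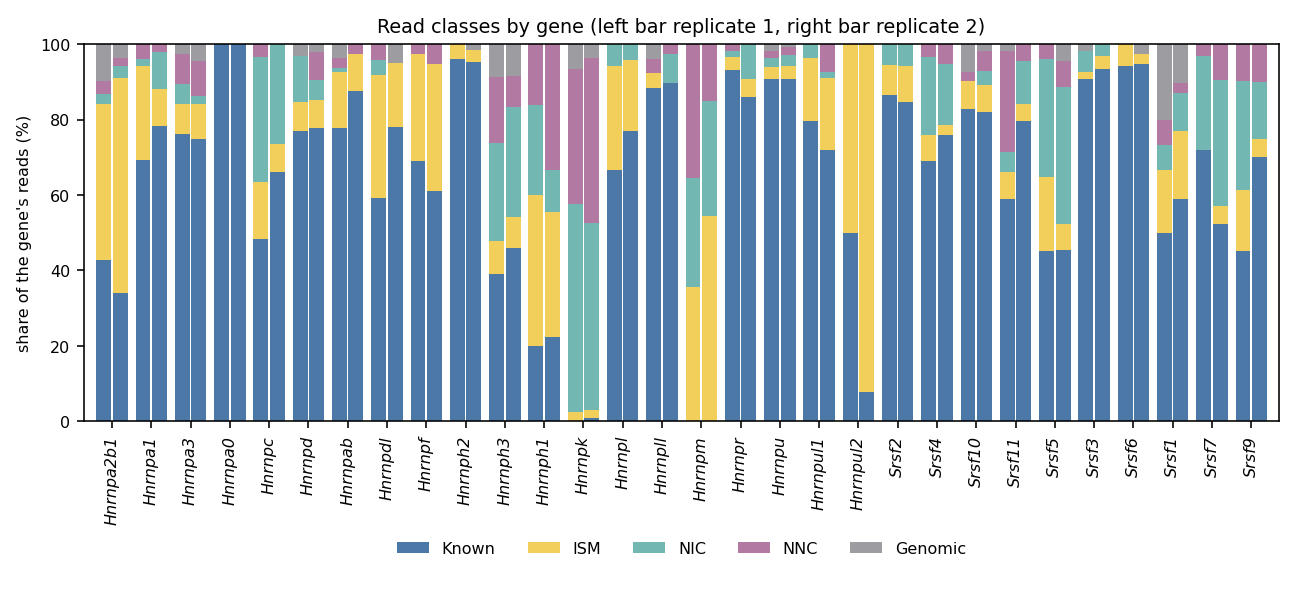
Share of each gene's reads by class, left bar replicate 1 and right bar replicate 2, genes grouped by family. Hnrnpk and Hnrnpm have almost no Known reads, Hnrnpa2b1 and Hnrnpul2 have large ISM shares, and Srsf3, Srsf6, Hnrnph2 and Hnrnpu are mostly Known.

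Processed copies could take reads from these genes. By alignment of transcripts (at least 90% identity over at least 50% of the copy), 75 pseudogene copies of 14 members were found, 8 of which had reads, 23 and 12 in all. Hnrnpa3 had 35 copies with 21 and 9 reads, next to 38 and 44 for the gene itself, so its level and ratio are uncertain. For the other members the copies held at most 2 reads per library.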

How the data were processed

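Raw counts of reads per transcript model were deposited, 1 table per library. Per the file headers and the README files deposited with them, the models come from TALON on mm10 with GENCODE M21. Not given in the sources used here are the aligner, sequencing platform, versions and model filters. Exon numbers, lengths and 1-based exon positions were also taken from the deposited tables and annotations, in which 282 of 282 member transcripts matched the reference.

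Reads were summed per gene over all classes, and CPM is reads per 1000000 reads of the table, spike-ins included (2.71% and 0.590%). Log2 ratios used a pseudocount of 1 CPM. Gene levels (at least 10 reads over both libraries, 2-fold), unproductive shares, exon inclusion and intron retention (at least 10 reads in each, 10 points) and the most read transcript (at least 20 reads in each, 20 points) were compared by two-sided Fisher's exact tests with Benjamini-Hochberg adjustment over all features, at an adjusted p below 0.05. Scaled ratios used an exact binomial test. With 1 group, these tests compare libraries and have no replicate check. Intervals are 95% Clopper-Pearson, cover counting error only, and copies of 1 molecule cannot be told from separate molecules. Every member was described. The events named include the 15 with the most inclusion or retention reads. Coding exons named are those with 10% to 90% inclusion and at least 20 reads in each. The tests were tested on simulated data. Members, lists and tests were chosen with earlier results of these data known. An Hnrnph1 exon with 5 reads and 1 read was below the minimum and is not described further. One coding exon is not reported here. Alternatives changed scaling (edgeR 4.0.16 TMM, DESeq2 1.42.0), minimums, read classes and the library left out. Pseudogene copies were aligned with minimap2 2.31, and the rest was computed in R 4.3.3 and in Python 3.11.15 (scipy 1.17.1).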

Additional observations from a re-analysis of the deposited data

How the results depend on the processing

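No paired analysis was possible because there was 1 group. The number of members called at gene level, 1, became 0 with a minimum of 50 reads, with Known transcripts only and after centring by transcript length, 6 with a fold minimum of 1.5, and 3 with the deeper library thinned to the other's depth. With a minimum of 50 reads, 430 of 4627 genes were called higher and 128 lower. Among Known transcripts only, 591 of 7229 genes were called higher and 145 lower. At the fold minimum of 1.5, 1150 of 9032 genes were called higher and 438 lower. With the deeper library thinned, 615 of 8750 genes were called higher and 168 lower. The number of members called was 1 without ISM and Genomic models as well, but the gene was Hnrnpll in place of Hnrnpul2. Under that setting 774 of 8194 genes were called higher and 157 lower. Over all genes the split of higher against lower calls was 744 and 184 with total reads, 446 and 375 with TMM, 371 and 456 with DESeq2 factors and 253 and 151 after centring. Of the 8 members that passed at any fold, Hnrnpd passed under every alternative run, Hnrnpu failed after centring (log2 ratio 0.22), and each of the others failed under at least 1 setting, with no direction reversed. One intron was called where single-exon models counted as retaining, the 156-nt intron of Hnrnpa2b1 with 61 of 397 and 5 of 307 reads. Without single-exon models the counts were 12 of 348 and 5 of 307, so every added read was in replicate 1. The share of all introns called with single-exon models included was not counted. Whether the added reads came from RNA with the intron retained was not tested. With no minimum difference, 1 member was called for its most read transcript, Hnrnpa2b1.

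The pooled unproductive share of SR genes, 7.38% as the mean of both libraries, was 5.13% at a minimum of 20 reads, 4.43% with nonsense_mediated_decay transcripts only and 19.1% over all spliced models. For hnRNP genes 2.46% became 6.60% over all spliced models, and over all genes 1.04% became 0.176% with nonsense_mediated_decay only and 2.00% over all spliced models. Inclusion of unproductive exons in SR genes, 12.9%, was 11.3% at a minimum of 20 reads, 2.80% in Known transcripts only and 13.7% with overlapping exons. In hnRNP genes 4.10% became 0.318% and 7.91% under the last 2 of these. Intron retention in SR genes, 2.08%, was 2.84% at a minimum of 5 reads, 2.47% with single-exon models counted, 0.435% in Known transcripts only and 1.67% without ISM models. In hnRNP genes 0.795% became 1.00% with single-exon models counted, 0.0186% in Known transcripts only, 0.177% without ISM models and 0.482% with an overhang of 20 bases, which was chosen after seeing the data. The pooled share of the most read transcript, 47.2%, was 69.6% among Known transcripts only. Leaving out a library gave 6.01% to 8.75%, 1.43% to 3.48% and 0.998% to 1.08% for the unproductive shares of SR genes, hnRNP genes and all genes, 12.7% to 13.1% and 2.68% to 5.52% for exons, 2.00% to 2.16% and 0.730% to 0.861% for introns, and 43.2% to 51.1% for the most read transcript. The cause of these shifts was not tested. Depth limits the exon and intron shares, many of which rest on fewer than 50 reads.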
